A study of Mus musculus with 5 samples.

Results

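Gfi1 peaks that no Lsd1 peak touched were a small set of 432 regions in MG tumors. They were selected on the peak calls themselves. A member was a Gfi1 peak of tumor 39 that had at least 50% of its length in Gfi1 peaks of tumor 41 and shared no base with an Lsd1 peak of either tumor. In all, 19094 Gfi1 peaks of tumor 39 met the first condition and are called reproducible here, of the 36836 peaks in that list, so that the members were 2.26% of the reproducible peaks. The other 18662 reproducible peaks overlapped an Lsd1 peak in at least 1 tumor. Absence of Lsd1 refers to called peaks, since the lists carry no read counts, and a region below the peak threshold cannot be told apart from one without Lsd1.

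MG tumors are murine medulloblastomas made from Prominin1+ neural stem cells of the cerebellum, taken from C57BL/6 pups labelled as 5 to 7 days old, which were infected with retroviruses for Myc and Gfi1 and transplanted into the cerebella of immunodeficient NSG mice. Both groups of libraries, Gfi1 ChIP and Lsd1 ChIP, came from the same 2 tumors, numbered 39 and 41, and both tumors carried both transgenes. Gfi1 was therefore expressed from a virus in every tumor, and no tumor without it was among these libraries. The lists held 36836 and 25078 Gfi1 peaks and 30367 and 33213 Lsd1 peaks in tumors 39 and 41. Gfi1 was measured with a rabbit polyclonal antibody against Gfi1, and Lsd1 with one against Lsd1. The input sample was a pool of MGB tumors, which carry Myc and Gfi1b, and its reads were not analysed here.

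Gfi1 is a transcriptional repressor that binds DNA through C-terminal zinc fingers, with AATC at the heart of its recognition site. Its N-terminal SNAG domain mimics the tail of histone H3 and is bound by Lsd1, a histone demethylase that acts with CoREST. A factor can be found at a region through its own DNA site or through other proteins bound there, and peak calls alone do not separate these cases. The 6-letter word AAATCA, read on either strand, is called the Gfi1 core here. The central window is the 200 bp around the middle of the bases shared by the tumor 39 and tumor 41 peaks.

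Sequence is shown first for the 5 members that ranked highest when their percentiles in both Gfi1 lists were averaged, as the strongest examples of Gfi1 without Lsd1. Each line gives the central window from RefSeq GRCm38 (mm10), 5′ to 3′ on the plus strand, and capitals mark the core or its reverse complement TGATTT.
Vav2, chr2:27281328-27281527, + strand: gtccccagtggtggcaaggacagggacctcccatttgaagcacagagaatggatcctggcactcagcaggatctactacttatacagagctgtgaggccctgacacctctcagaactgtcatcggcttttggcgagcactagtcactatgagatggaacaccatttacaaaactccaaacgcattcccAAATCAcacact
Phf12, chr11:78019222-78019421, + strand: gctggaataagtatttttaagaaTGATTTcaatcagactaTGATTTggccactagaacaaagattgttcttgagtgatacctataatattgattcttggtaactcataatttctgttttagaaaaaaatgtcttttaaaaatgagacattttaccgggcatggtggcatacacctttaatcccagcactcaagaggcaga
P2ry6, chr7:100964825-100965024, + strand: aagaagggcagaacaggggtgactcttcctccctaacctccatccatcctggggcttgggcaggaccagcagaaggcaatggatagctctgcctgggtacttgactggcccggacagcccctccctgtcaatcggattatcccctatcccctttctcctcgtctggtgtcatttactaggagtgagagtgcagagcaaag
Atxn7, chr14:14098319-14098518, + strand: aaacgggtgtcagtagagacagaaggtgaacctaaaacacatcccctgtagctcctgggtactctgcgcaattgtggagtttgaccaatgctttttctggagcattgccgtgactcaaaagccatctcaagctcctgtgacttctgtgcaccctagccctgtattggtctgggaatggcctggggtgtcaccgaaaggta
Vmn2r7, chr3:64791113-64791312, + strand: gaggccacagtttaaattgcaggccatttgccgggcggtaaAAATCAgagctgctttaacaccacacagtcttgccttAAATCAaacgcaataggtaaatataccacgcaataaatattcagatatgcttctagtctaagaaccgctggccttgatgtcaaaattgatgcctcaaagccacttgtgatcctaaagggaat
Of these 5 windows, those at Vav2, Phf12 and Vmn2r7 held the core, and those at P2ry6 and Atxn7 did not. A further pair shows the next highest members at a transcription start site (TSS) of a protein-coding gene, after P2ry6.
Ptprf, chr4:118216371-118216570, + strand: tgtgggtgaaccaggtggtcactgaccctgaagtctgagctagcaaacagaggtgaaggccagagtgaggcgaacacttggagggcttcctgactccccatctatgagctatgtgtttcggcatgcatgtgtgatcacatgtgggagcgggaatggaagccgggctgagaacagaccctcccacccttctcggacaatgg
Tsga10ip, chr19:5394096-5394295, + strand: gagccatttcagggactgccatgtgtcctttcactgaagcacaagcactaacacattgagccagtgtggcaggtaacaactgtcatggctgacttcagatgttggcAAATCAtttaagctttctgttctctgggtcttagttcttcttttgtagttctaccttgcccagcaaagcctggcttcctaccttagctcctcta
The window at Tsga10ip held 1 core and the window at Ptprf held none.

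The core was found in the central window of 100 of the 432 members, which is 23.1% (95% exact interval, 19.3% to 27.4%). It was found in 1126 of the 18662 other reproducible peaks, or 6.03% (5.70% to 6.38%), and in 6.42% of all reproducible Gfi1 peaks. The core thus occurred 3.84 times as often in windows without an Lsd1 peak. The rule did not use sequence. Peaks are not replicates and the tumors were 2, for which an exact paired permutation test cannot go below p = 0.5, so that no test between sets of peaks was run. Intervals cover counting error only.

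Since peaks at TSSs lie in GC-rich DNA, peaks over 1000 bp from any TSS were also compared alone. The core was in 92 of 351 such members, 26.2% (21.7% to 31.1%), and in 540 of 6335 other reproducible peaks, 8.52% (7.85% to 9.24%). The median GC content of the central windows was close in these sets, at 52.5% for the members and 53.5% for the others. Within 1000 bp of a TSS the core was in 8 of 81 members, 9.88% (4.36% to 18.5%), against 4.75% of 12327 others, and the interval of the members held the value of the others. Introns and intergenic DNA showed the same order. The core was in 21.2% of 184 intronic members and 8.41% of other intronic peaks, and in 32.8% of 134 intergenic members and 9.28% of other intergenic peaks.

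The share with a core fell with the number of tumors in which an Lsd1 peak was called. Among peaks over 1000 bp from a TSS it was 26.2% with Lsd1 peaks in 0 lists, 13.1% (10.8% to 15.8%) of 753 peaks with Lsd1 in 1 list, and 7.90% (7.21% to 8.64%) of 5582 peaks with Lsd1 in both. The intermediate value was 14.3% where tumor 39 alone had one and 12.1% where tumor 41 alone had one, with intervals that overlapped. At TSSs the order was not the same, with 9.88%, 11.7% and 4.59% for 0, 1 and 2 lists.

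**Figure D1:**
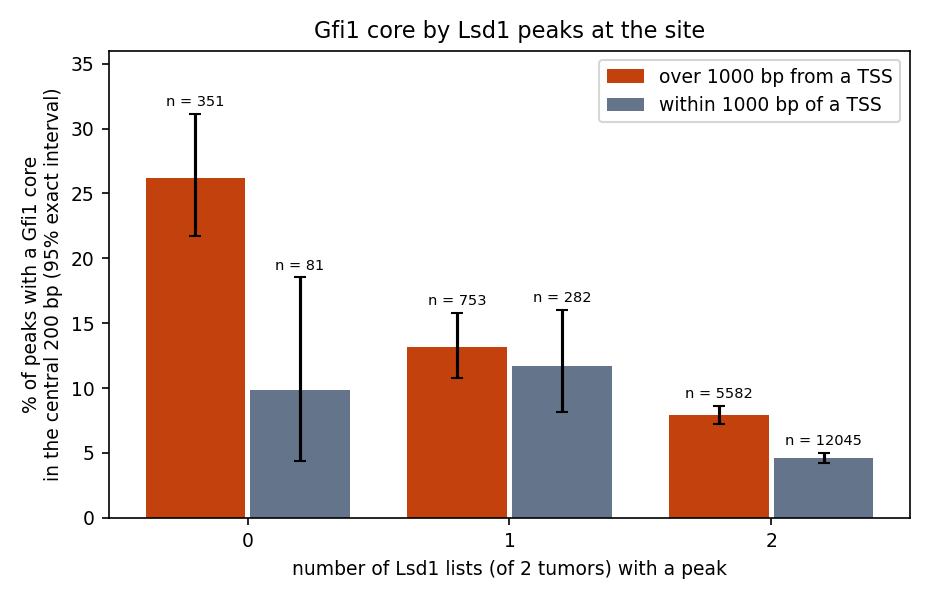
Percent of reproducible Gfi1 peaks with the Gfi1 core in the central 200 bp (y axis) by the number of Lsd1 lists with an overlapping peak (x axis), for peaks over or within 1000 bp of a TSS. Bars with 95% exact binomial intervals fall from 26.2% to 13.1% and 7.90% away from TSSs, while at TSSs the interval for 0 lists spans 4.36% to 18.5%.

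The difference was also seen at matched tumor 39 score. The reproducible peaks were divided into 5 equal bins by their tumor 39 score. The tumor 41 score was not matched. Over all bins, its median percentile was 21.6 for members and 63.5 for the others. Whether the difference holds at matched tumor 41 score was not tested. In the lowest bin, away from TSSs, the core was in 24.7% (19.9% to 29.9%) of 304 members and in 8.77% (7.73% to 9.90%) of 2713 others. In the next bin it was in 34.8% (21.4% to 50.2%) of 46 members and in 8.87% of 2265 others. The third bin held 2 members and the top bins none, so that no comparison was possible there. Within the members, those with a core had median percentiles of 29.5 in tumor 39 and 26.3 in tumor 41, and those without one had 27.1 and 20.5. Of the 50 members with the highest mean percentile, 19 held a core, or 38.0%.

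The core was found in more of the members near the centre than in the flanks. Counted in steps of 100 bp over peaks over 1000 bp from a TSS, it was in 14.0% and 13.7% of members in the steps on either side of the centre, and in 6.27% and 6.55% in the outermost steps, from 400 bp to 500 bp away. In the other reproducible peaks the same counts ran from 4.28% to 5.67%, with the highest values at the outer ends. The median width was 962 bp for these members and 1427 bp for the others. The outermost steps thus often reached past the edge of a member. The members held 1.52 cores per kb in the central window and 0.923 per kb over the whole peak, while the others held 0.467 and 0.480 per kb. Over the whole peak, at least 1 core was found in 60.9% (56.1% to 65.5%) of members and 59.3% (58.6% to 60.05%) of the wider other peaks, or in 61.8% (56.5% to 66.9%) and 52.6% (51.4% to 53.9%) away from TSSs. Where a member had a core in the central window, its closest core was a median of 46 bp from the centre. In 15 members the window held 2 or more cores.

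**Figure D2:**
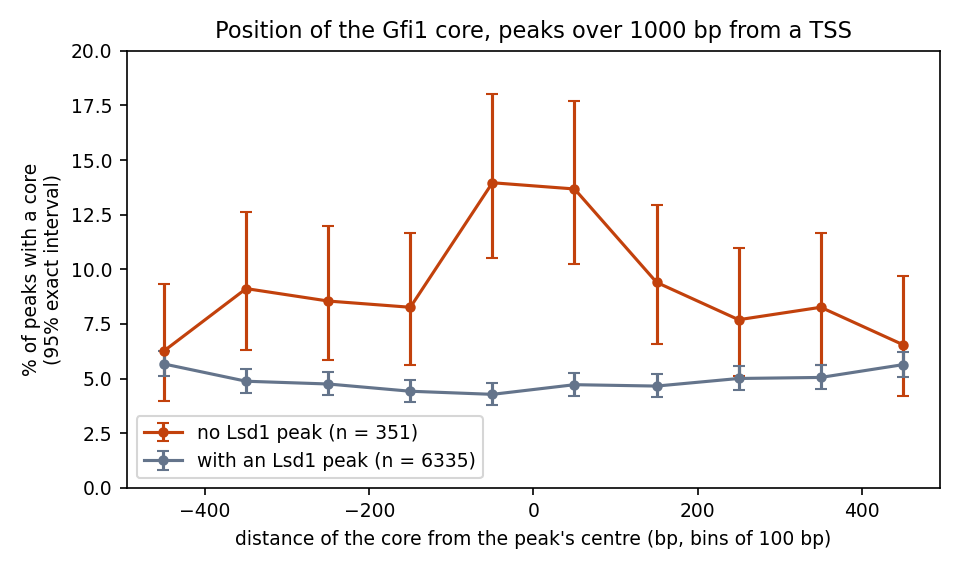
Percent of peaks over 1000 bp from a TSS that held a Gfi1 core (y axis) in each step of 100 bp, by distance from the peak's centre in bp (x axis), with 95% exact binomial intervals. The 351 peaks without Lsd1 rise to 14.0% beside the centre, and the 6335 peaks with Lsd1 stay between 4.28% and 5.67%.

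The bases after the core had unequal frequencies in the 2 sets. Positions were counted from 1 at the first base of the core, read in the direction AAATCA. At position 9, G was found beside 60.7% of the 107 cores in members over 1000 bp from a TSS and beside 31.6% of the 592 cores in other peaks there. At position 10, C was found beside 52.3% and 34.0% of them. At position 8, A was found beside 47.7% and 41.4%, and from position 11 to position 16 each base was at 17.8% to 30.8% in members. The 4 bases just before the core held A in 31.8% to 41.1% of member cores and in 27.7% to 34.5% of the others.

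The longer word AAATCANNGC adds to the core the bases that over 50% of the cores in all members shared, and was chosen after these bases were seen, so its counts describe the same peaks and are no independent result. It occurred in the central window of 42 members, 9.72% (7.10% to 12.9%), and of 139 others, 0.745% (0.627% to 0.879%), or in 0.948% of all reproducible peaks. Of the 8 highest members with it outside UTRs, 7 are shown in the direction of the core. They were picked because they hold the word, and they show no difference between the sets. Capitals mark the core and the G and C that follow, and coordinates are GRCm38.
Vmn2r7, chr3:64791142-64791171, + strand: gccgggcggtaaAAATCAgaGCtgctttaa
Gm31562, chr10:39239785-39239814, + strand: gagagcctttaaAAATCAaaGCcagtgaca
4930543E12Rik, chr7:113167393-113167422, - strand: aaaggaaaaaaaAAATCAaaGCagttgagg
Fras1, chr5:96334191-96334220, - strand: gttttgtttcagAAATCAaaGCcctgatac
Nfam1, chr15:83052211-83052240, + strand: gcgtgtgaaaaaAAATCActGCcgcccact
Gm8705, chr15:38247801-38247830, - strand: aaaaaaccaaaaAAATCAaaGCagaactcc
Chmp4b, chr2:154648304-154648333, - strand: cttctataaagtAAATCAcaGCaaacattc
All 7 lay over 1000 bp from a TSS, in an intron at Vmn2r7 and Gm8705 and in intergenic DNA at the others. Their nearest Lsd1 peak was from 783 bp away at Gm8705 to 29502 bp away at Gm31562. Soft-masked repeat sequence covered 27.3% of the 44 sites of the longer word in members and 11.4% of the 140 in others. With repeat sites left out, the longer word remained in 6.94% (4.73% to 9.77%) of members and 0.664% (0.553% to 0.792%) of others, and the core in 17.6% (14.1% to 21.5%) and 5.12% (4.81% to 5.45%).

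The share with a core was also read by distance to Lsd1. The core was in 15.4% (8.21% to 25.3%) of 78 members closer than 1000 bp to an Lsd1 peak, 17.7% (11.5% to 25.6%) of 124 at 1000 bp to 4999 bp, 26.8% (19.3% to 35.4%) of 127 at 5000 bp to 19999 bp, and 31.1% (22.3% to 40.9%) of 103 at 20000 bp or more. Neighbouring classes had intervals that overlapped, as did the first and the last.

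The tumors did not show the core alike. For whole lists and for peaks of 1 tumor alone, the window was centred on each peak itself. With windows centred on the tumor 39 peak, the core was in 18.5% of members and 5.99% of other reproducible peaks. Taking each tumor's whole Gfi1 list against its own Lsd1 list, the core was in 19.5% of the 2788 tumor 41 peaks without Lsd1 and in 7.15% of the 22290 with Lsd1. In tumor 39 it was in 6.91% of the 11406 peaks without Lsd1 and in 5.77% of the 25430 with it. Away from TSSs the shares were 19.9% and 9.29% in tumor 41 and 7.79% and 7.59% in tumor 39, so that the sets were nearly equal in tumor 39. Over the whole lists, median GC without and with Lsd1 was 49.0% and 56.5% in tumor 41, and 58.0% and 57.5% in tumor 39. Whether the core difference follows GC content was not tested. The core difference rests on tumor 41. Without its Gfi1 list, the core was in 7.23% of the 8039 tumor 39 peaks that touched no Lsd1 peak and in 5.82% of the rest. Over both tumors the share without Lsd1 was 13.2% ± 8.89 (SD, n = 2) and with Lsd1 6.46% ± 0.972 (SD, n = 2). Among Gfi1 peaks with no Lsd1 peak that one tumor alone had called, the core was in 21.6% (19.3% to 23.9%) of 1261 from tumor 41 and in 6.51% (5.96% to 7.09%) of 7542 from tumor 39. Of the 8039 tumor 39 Gfi1 peaks without Lsd1, 5.37% were members, whereas 64.8% of the tumor 39 peaks with Lsd1 were reproducible.

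The other words searched, each on both strands, gave smaller differences away from TSSs. The 4-letter core AATC was in 67.8% of members and 55.7% of others there, and in 48.8% of all reproducible peaks, and the 8-letter word TAAATCAC was in 1.71% and 0.616%, and in 0.314% of all. Both overlap the core. The Myc E-box CACGTG was in 2.56% of members and 5.86% of others (5.43% of all reproducible peaks), and the proneural E-box CAGCTG in 18.5% and 19% (14.5% of all). The GC box GGGCGG was in 8.55% and 10.8% (29.1% of all), the NFI half-site TTGGCA in 14.0% and 16.9% (11.0% of all), the AP-1 site TGANTCA in 7.41% and 6.49% (4.34% of all), and the Sox word ACAATG in 9.40% and 7.94% (5.33% of all). The Ets word CCGGAA differed over all peaks, at 5.32% of members and 11.5% of others, but not away from TSSs, at 5.70% and 4.97% (11.3% of all). A match is a word in this window and not a bound site.

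Members were weaker and narrower than the other reproducible peaks in both tumors. Sets were compared by percentiles within a list, since the definition of the scores was not given with the lists. Scores of named members are printed as given, and their scale may differ between the lists. The median percentile of members was 27.3 in tumor 39 and 21.6 in tumor 41, against 73.2 and 63.5 for the others. The highest member reached percentile 73.6 in tumor 39. The median width was 970.5 bp in tumor 39 and 1071 bp in tumor 41, against 1890 bp and 1917 bp. Members over 1000 bp from a TSS had a median of 962 bp, against 1427 bp for others there. Score and width are tied to the rule, since a wide or strong peak has more chance to touch another, and are given as description.

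The share of reproducible peaks that were members fell steeply with the score. It was 9.74% (8.82% to 10.7%) of 3819 peaks in the lowest bin, 1.52% (1.16% to 1.96%) in the next and 0.0524% (0.00634% to 0.189%) in the third. In each of the top bins 0 of 3819 peaks were members, which allows a share of up to 0.0965% by the exact interval. By the score of tumor 41 some members ranked higher, up to the Vav2 and Phf12 members among those whose tumor 41 peak also touched no Lsd1 peak, at percentiles 84.4 and 82.1.

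**Figure D3:**
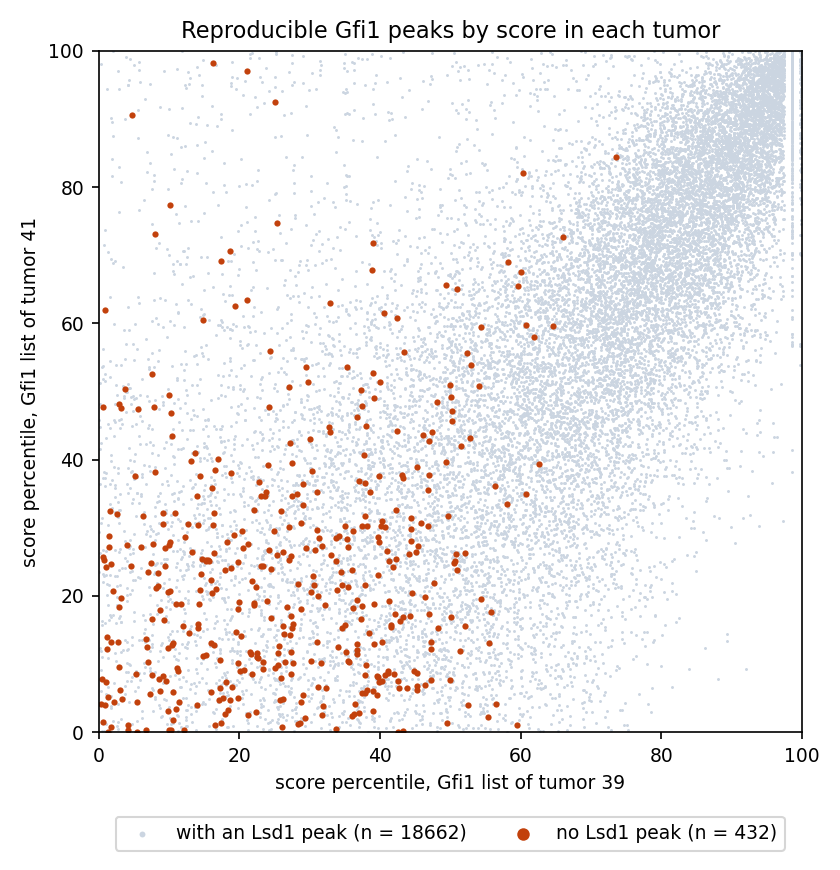
Score percentile of each reproducible Gfi1 peak in the Gfi1 list of tumor 39 (x axis) and of the tumor 41 peak it shares most bases with (y axis). The 432 peaks without Lsd1 sit at low percentiles, with medians of 27.3 and 21.6, and none passes 73.6 in tumor 39.

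The position of members relative to TSSs was compared at matched score as well. A TSS lay within 1000 bp of 81 members, 18.8% (15.2% to 22.8%), and of 66.1% (65.4% to 66.7%) of the others, with 65% of all reproducible Gfi1 peaks at a TSS. A TSS lay inside 9.49% of members and 62.0% of the others. In the lowest score bin, which held 372 of the 432 members, the shares were 18.3% (14.5% to 22.6%) for members and 21.3% (19.9% to 22.7%) for others, and these intervals overlapped. In the next bin they were 20.7% (11.2% to 33.4%) and 39.8% (38.2% to 41.4%). The midpoint of 184 members lay in an intron, 42.6%, of 33 in an exon, 7.64%, and of 134 between genes, 31.0%. Away from TSSs the split was nearly the same in both sets, with 52.4% of members and 52.6% of others in introns and 38.2% and 37.8% between genes.

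**Figure D4:**
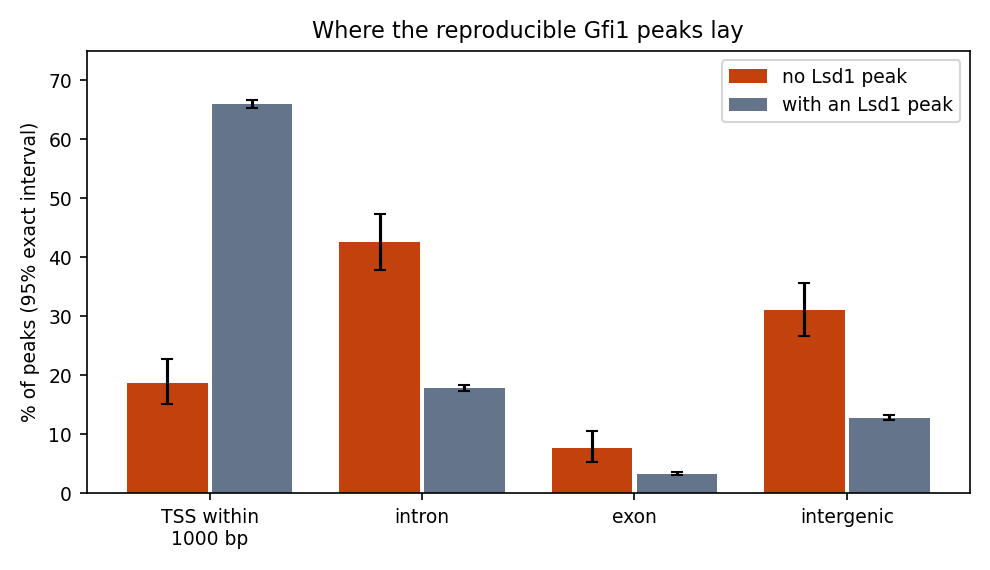
Percent of peaks (y axis, bars with 95% exact binomial intervals) within 1000 bp of a TSS, or with the midpoint in an intron, an exon or between genes (x axis). Members are at TSSs in 18.8% of cases and others in 66.1%.

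Members at TSSs held fewer CpG sites than the other peaks there. The ratio of observed to expected CpG in the central window had a median of 0.304 in the 81 members at a TSS and 0.722 in the 12327 others there, and the median GC content was 55.5% and 62.5%. Away from TSSs the ratio was 0.308 in members and 0.293 in others. Soft-masked repeats covered 13.1% of the central windows of members on average and 8.34% of those of others, or 13.0% and 11.6% away from TSSs.

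Members lay at widely differing distances from Lsd1. The nearest Lsd1 peak of either tumor was a median of 5847.5 bp away, with quartiles of 1653 bp and 18455 bp. It was 7680 bp away by the list of tumor 39 and 7276.5 bp by that of tumor 41. An Lsd1 peak lay within 1000 bp of 78 members, 18.1%, and over 10000 bp from 165, 38.2%, and 12 members were over 100000 bp from any. At the edge of the rule, 8 members came within 50 bp of an Lsd1 peak, of which 1 touched it end to end, while 3 non-members shared at most 50 bp with one. The other edge held 11 members with 50% to 55% of their length in tumor 41 peaks, at a median percentile of 37.3 in tumor 39, and 8 peaks without Lsd1 just outside it, with 45% to 50%, had a median percentile of 36.5.

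**Figure D5:**
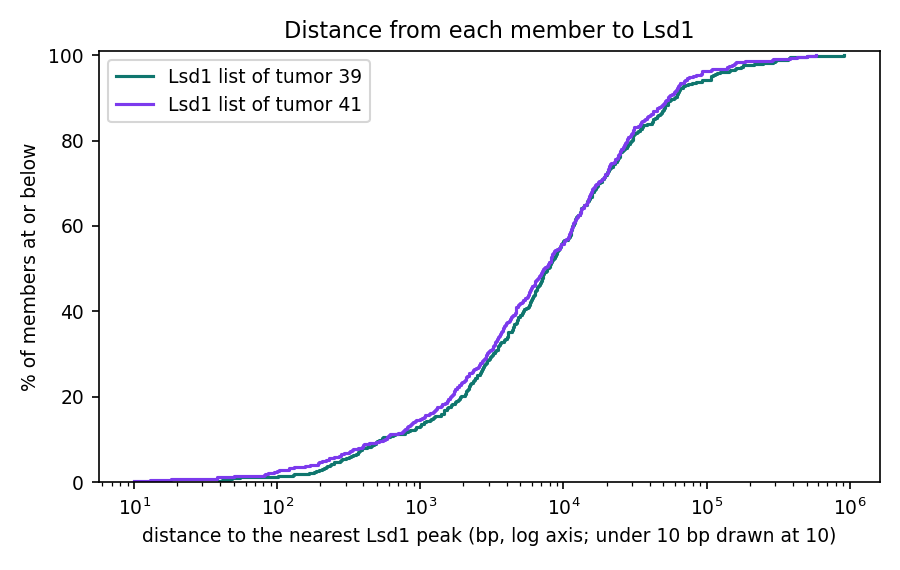
Cumulative percent of the 432 members (y axis) by the distance to the nearest Lsd1 peak in bp on a log axis (x axis), for the Lsd1 list of each tumor. The curves of the tumors lie close together, with medians of 7680 bp and 7276.5 bp.

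In 28 members a Gfi1 peak of tumor 41 that overlapped the member itself reached an Lsd1 peak. Width and percentile were read from the tumor 41 peak that shared most bases with the member. This need not be the peak that reached Lsd1. The medians were 1995 bp and 46.2 at these 28 members, against 1048.5 bp and 20.8 at the other 404. The member at Tsga10ip shows this type. It was 1070 bp wide with a score of 75.11 in tumor 39, at percentile 21.1. The tumor 41 peak was 7992 bp wide with a score of 1196.41, at percentile 97.0. Lsd1 peaks lay 39 bp and 81 bp away. The highest tumor 41 score of any member, 1384.08 near Cse1l at percentile 98.2, was of the same kind. Its score in tumor 39 was 67.38, at percentile 16.3. The core was in 24.0% (19.9% to 28.5%) of the 404 members without such a peak and in 3 of the 28 with one.

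The member with the highest mean percentile, 79.0, lay in an intron of Vav2, which encodes a guanine nucleotide exchange factor, at chr2:27280460-27282926. Its scores were 677.03 in tumor 39 and 598.87 in tumor 41, at percentiles 73.6 and 84.4. The nearest Lsd1 peaks were 31699 bp away in tumor 39 and 10972 bp in tumor 41, and the nearest TSS, also of Vav2, was 1580 bp away. It was high among members in both tumors. In tumor 39 its percentile was close to the median of the other reproducible peaks, 73.2.

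The next lay in an intron of Phf12, which encodes a PHD-finger protein of Sin3 corepressor complexes, at chr11:78018545-78020099. Its score was 288.8 in tumor 39 and 548.95 in tumor 41, and its window held 2 cores. Lsd1 peaks were 11352 bp and 10963 bp away. The member at P2ry6, a receptor for UDP, overlapped a TSS inside the gene at chr7:100963853-100965877, with scores of 403.95 and 386.89 and Lsd1 peaks at 19612 bp and 8229 bp. The member in an intron of Atxn7, a subunit of the SAGA coactivator complex, at chr14:14097769-14099068, scored 281.23 and 319.35, with Lsd1 at 20716 bp and 20758 bp.

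The others of the 10 highest were more mixed. An intronic member of Vmn2r7, a vomeronasal receptor gene, at chr3:64790534-64791892 scored 255.66 and 337.42 and held 2 cores. An intron of Cab39l held a member with scores of 296.11 and 237.08, closest to the TSS of Cdadc1. A member closest to the noncoding gene Gm26970 scored 274.4 and 293.54. At Ptprf, which encodes a receptor tyrosine phosphatase of axons, a TSS inside the gene was overlapped by the widest member, 2792 bp at chr4:118214926-118217717, with scores of 314.36 and 222.45 and no Lsd1 peak within 27307 bp. Of the 10 highest members, 5 held the core.

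At TSSs of protein-coding genes the next highest members were near Dhdh and Myl2. Dhdh had scores of 118.23 and 373.77 with an Lsd1 peak 224 bp away. Its tumor 41 peak was 4896 bp wide and itself touched an Lsd1 peak. Myl2, the regulatory light chain of cardiac myosin, had 208.24 and 172.6 with the closest Lsd1 peak 11089 bp away. Among the 5 widest were also members at Park7, which protects against oxidative stress, with scores of 197.14 and 191.15, and near Gm11729, with 224.81 and 71.12. The member farthest from Lsd1, 577758 bp away, lay at chr10:102449311-102450238 near Gm26988, with scores of 117.92 and 323.09 and 2 cores. The other members among the 5 farthest had scores of 59.12 to 86.05 in tumor 39 and 52.98 to 84.21 in tumor 41, and held no core.

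Clic4, an intracellular chloride channel gene, and Arhgap10, which encodes a GTPase-activating protein, held 3 members each. At Clic4 the members scored 141.51, 114.42 and 58.65 in tumor 39 and 97.65, 112.21 and 82.47 in tumor 41. At Arhgap10 they scored 110.74, 55.89 and 65.87 in tumor 39 and 63.65, 65.63 and 84.22 in tumor 41. All 6 were below percentile 50 in tumor 39, and the core was in 1 of them, at Clic4. Members of 1 gene share a locus and are not independent.

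The members were closest to, or lay in, 342 of 21938 protein-coding genes, counted by gene identifier, or 1.56%. Neural transcription factor genes had a member at 4 of 71, which were Tcf4, Bcl11b, Ebf3 and Lhx9. Ion channel and transmitter receptor genes had one at 3 of 66, the calcium channel genes Cacna1c and Cacnb4 and the potassium channel gene Kcnh1. Axon guidance and migration genes had one at 1 of 52, at Slit3, and adhesion and synapse genes at 1 of 77, at Dlgap1, which had 2 members. There was none at 14 genes that the study followed, 34 Gfi1 targets of blood cells, 53 cell cycle genes, 23 genes of the Lsd1 complex or with a SNAG domain, or 32 genes of blood and immune cells. Counts of this size were not tested, and longer genes hold more peaks.

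Of the listed genes, Tcf4, which pairs with proneural factors, had the member with the highest mean percentile of the transcription factor genes, scoring 110.88 and 149.31 with 1 core, 4754 bp from Lsd1. Bcl11b, which acts in corticospinal neurons and T cells, had scores of 193.46 in tumor 39 and 53.99 in tumor 41. Ebf3 had 77.32 and 52.91, and Lhx9 had 70.62 and 53.16. The member in Slit3, a ligand in axon guidance, scored 170.77 and 296.4 and lay 63868 bp from Lsd1. At Cacna1c and Cacnb4 the scores ran from 57.66 to 81.7, and at Kcnh1 they were 56.85 and 89.08 with 1 core.

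Genes next to members were often bound by Gfi1 with Lsd1 at their own promoter. Of 214 members over 1000 bp from a TSS whose closest TSS was of a protein-coding gene, 157 had such a promoter peak at that gene, 73.4% (66.9% to 79.2%). The share was 83.6% (82.4% to 84.7%) for the other peaks away from TSSs, and 52.2% of all protein-coding genes had one.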

How the data were processed

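ChIP-seq libraries for Gfi1 and for Lsd1 were made from the same 2 MG tumors, which pairs the replicate numbers. The authors aligned reads to mm10 with BWA 0.6.2, removed duplicates and called peaks with MACS in each library against input chromatin. The deposited peak lists give positions and a score, whose definition the authors did not give with them. Read counts were not used here, so depth and precision per peak are unknown. The members, word list, gene lists and rule for named genes were chosen with earlier results of these data known.

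Members needed 50% of their length in replicate 2 Gfi1 peaks and 0 bp of Lsd1. TSSs and genes came from GENCODE M21, where the authors used M9, with a TSS window of 1000 bp. Words were counted in the central 200 bp of RefSeq GRCm38 sequence. Genes named were those of the 10 highest members by mean percentile, the 5 highest at coding TSSs, the 5 widest, the 5 farthest from Lsd1, up to 4 per gene list, and genes with 3 or more members. No sequence from chromosome 18 is shown. Some members that the rule names are not reported here. Cse1l and the genes of the printed sites were chosen after their values were seen. Exact binomial intervals are at 95%. Alternatives varied overlaps, score, windows, words and libraries. Python 3.11.15, numpy 2.4.6, scipy 1.17.1 and pysam 0.24.0 were used.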

Additional observations from a re-analysis of the deposited data

Results flagged for a closer look

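The GC content of peaks without Lsd1 differed in direction between the tumors. Each tumor's whole Gfi1 list was taken against its own Lsd1 list, with windows centred on each peak itself. The median GC of the central windows was 58.0% without Lsd1 and 57.5% with Lsd1 in tumor 39, a difference of 0.5 percentage points. In tumor 41 it was 49.0% and 56.5%, a difference of -7.5 points. The tumors are replicates of 1 group, and the difference between them was not tested.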

How the results depend on the processing

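No library reads were used, and 2 tumors limit every statement on their spread. The number of members stayed between 305 and 497 under the other overlap rules, and was 411 with the replicate block, in which each tumor's Gfi1 peaks were compared with its own Lsd1 list in this paired design. The block left the share with a core at 23.8% and that at a TSS at 18.5%, and changed no count beyond 1.5 times. The number was 1467 where Lsd1 had to be missing in only 1 list, and 151, 14 and 0 in the upper 80%, 50% and 20% of scores, where 71.3% and 83.1% of the other peaks were at a TSS for 80% and 50%. Leaving out a library gave 874 to 8039 members. The core share was then 7.23% to 22.3% in members, lowest without Gfi1 replicate 2, and 5.81% to 7.49% in others, and the share at a TSS was 14.1% to 27.9% and 57.0% to 67.2%.

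The direction of the core difference held in a wider window and in related words. These words contain the core or lie inside it, so they are no independent results. Members and others had 37.7% and 12% in the central 400 bp, 66.0% and 48.4% for AATC, 1.39% and 0.289% for the 8-letter word, and 9.72% and 0.745% for the longer word, which was added after seeing the data. A TSS within 5000 bp was found for 50% and 78.6%, one inside the peak for 9.49% and 62.0%, and a coding one within 1000 bp for 14.1% and 61.4%. Whole peaks had a median GC of 52.9% in others and soft-masked shares of 18.7% in members and 14.3% in others. Replicate 2 widths were 1071 bp and 1917 bp. Without 1 library, median GC was 48.5% to 58.0% in members and 56.0% to 58.5% in others, soft-masked shares 11.8% to 25.9% and 8.22% to 10.0%, and widths 964 bp to 1067 bp and 1662 bp to 1916 bp. The GC order of the sets reversed without Gfi1 replicate 2, at 58.0% in members and 57.5% in others. The causes were not tested.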

Other observations

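All 2080 words of 6 letters, with strands joined, were also compared away from TSSs, a comparison chosen after the core had been seen. Ordered by the share of members minus the share of other reproducible peaks, AAATCA came first, with a difference of 17.7 percentage points. The next was AATCAG, at 18.8% and 8.15%, which overlaps the core. The highest word that shares neither AATC nor ATCA was CACTAG, at 13.1% of members and 6.03% of others. Some A-rich words without AATC or ATCA also ranked high, with ACAAAA at 17.9% and 11.5% and AAAAAT at 15.1% and 9.82%. Words less rich in A, such as GAGAGC at 23.6% and 17.6%, ranked high as well. The median word differed by -0.04 points.

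Members were spread over the autosomes, from 8 on chromosome 16 to 36 on chromosome 2. The X chromosome held 1 member, 0.231% of members, and 242 of the others, 1.30%.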
